A study of Homo sapiens with 9 samples.

Results

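The genes described here are 42 genes of DNA damage signalling and DNA repair, taken as a list of names: 4 checkpoint kinases and genes of mismatch repair, homologous recombination, end joining, the Fanconi pathway, base excision repair and nucleotide excision repair. Of the 42, 38 had at least 1 probe set annotated to that symbol alone, out of 18132 genes so measured, and these 38 rested on 107 of 49293 probe sets. BRCA2, FANCA, FANCD2 and ERCC5 had no such probe set and have no value here. The arrays were 9 Affymetrix PrimeView arrays of Y79, a line of cells from a human retinoblastoma, a childhood tumour of the retina. In the GNPs-HDM2 group (3 arrays) the cells had been given gold nanoparticles coupled to an HDM2 peptide, in the GNPs group (3 arrays) bare gold nanoparticles, and in the Control group (3 arrays) nothing. All groups were the same line grown in RPMI medium, with no other agent named. The peptide's sequence, the dose, the time of exposure and the origin of the arrays of a group (separate cultures or 1 culture) are not given in the labels. The p-values below therefore speak of the spread among these arrays only, and that spread may be technical.

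The series' title places the peptide at the interaction of p53 with HDM2, the ubiquitin ligase that keeps p53 low. The genes described here act upstream of p53 and beside it. The kinases ATM and ATR are switched on by broken or single-stranded DNA and act through the kinases CHEK2 and CHEK1, and p53 is among the proteins that this signal stabilizes. The lesions themselves are mended by separate routes: mismatch repair corrects copying errors, homologous recombination and end joining rejoin broken chromosomes, the Fanconi pathway unhooks crosslinked strands, and excision repair removes damaged bases or bulky adducts. Many of these genes are expressed more strongly in dividing cells, through E2F factors, and retinoblastoma cells lack the RB1 protein that restrains E2F.

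In cells given the conjugate, most of these genes lay below the untreated cells. Of the 38, 27 fell, 2 rose (XRCC3 and XRCC1) and 9 did not pass the test (limma over all 18132 genes, Benjamini-Hochberg adjusted p under 0.05). Over all genes 25.1% were called lower and 33.1% higher in that comparison. In 23 of the 38 all conjugate arrays lay below all untreated arrays (23.9% of all genes) and in 2 above (36% of all genes). The median difference of the 38 genes was log2 -1.03, beside 0.25 over all genes, and the single values ran from -3.06 to 0.77. Against the bare particles, 29 of the 38 fell and 2 rose, where 29.1% of all genes were called lower and 43.2% higher. The bare particles themselves gave no call among the 38 (0.0221% of all genes were called higher and 0% lower, or 0.0331% and 0% level-centred as explained below), and 2 of the 38 had an unadjusted limma p under 0.05. Values are the deposited log values, taken as log2, of each gene (averaged over its probe sets), measured from a baseline that differs by probe set, so they give no level of a gene, and levels of different genes are not compared. RNA of whole cultures was measured, in which fewer expressing cells and less RNA per cell cannot be told apart.

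The 9 arrays differed in ways that are not specific to these genes, and those values belong beside every count above. Hybridization controls, bacterial transcripts added at the same amount to each array, averaged 1.68 ± 0.30 on the GNPs-HDM2 arrays, -0.12 ± 0.37 on the GNPs arrays and -0.38 ± 0.05 on the Control arrays (SD, n = 3; exact permutation p = 0.1 for GNPs-HDM2 against Control, the smallest that 3 against 3 allows). Poly-A controls, added to the RNA before labelling, averaged 1.28 ± 0.42, -0.19 ± 0.33 and -0.62 ± 0.67 on the same groups in that order. Probe sets of 18S ribosomal RNA lay at -2.32, -2.70 and -2.11 on the GNPs-HDM2 arrays, 0.13, 0.25 and 0.02 on the GNPs arrays and -0.93, -0.68 and 0.81 on the Control arrays. From the step size of the stored numbers each probe set was assigned a class of baseline level, called dim, middle or bright. On the GNPs-HDM2 arrays the median of all bright probe sets was -1.25, -1.73 and -0.26 and that of all dim ones 0.56, 0.73 and 0.19, while on the Control arrays both lay between -0.0043 and 0.03. Bright genes were thus low and dim genes high on the conjugate arrays across the whole table. Counts and role medians are therefore also given after every array was centred on its median within each class, called level-centred below. Differences of many single genes are also given in that form. Level-centred, 22 of the 38 genes were called lower and 2 higher against untreated cells (21.7% and 24.4% of all genes), with a median of -0.73 beside 0.08 over all genes, and all 22 were among the 27. After quantile normalization of all probe sets, 8 were called lower (MSH6, PALB2, RAD50, XRCC4, XRCC5, XRCC6, PRKDC and PARP1) and 0 higher, with a median of -0.32, where 7.47% of all genes were called lower and 3.15% higher. After centring each array on its median alone, 27.9% of all genes were called lower and 22.9% higher. The part of the array controls and of ribosomal RNA in these differences was not tested.

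The spread was unequal between groups, and the fit takes it as equal. The larger spread of the conjugate arrays is thus understated in their tests, and the number of genes called there may be too high. The smaller spread of the bare particle and untreated arrays is overstated where those groups are compared, and the number called there may be too low. The median SD of the 38 genes was 0.597 among the GNPs-HDM2 arrays, 0.0698 among the GNPs arrays and 0.187 among the Control arrays, and over all genes it was 0.396, 0.0892 and 0.151. The third conjugate array lay nearest to the other groups. The median of the 38 genes was -1.26, -1.39 and -0.55 on GNPs-HDM2 replicates 1, 2 and 3, against 0.14, 0.16 and 0.11 on the GNPs replicates and -0.03, -0.04 and 0.01 on the Control replicates. Of the 27 genes called lower, 24 had their highest conjugate value on replicate 3 and 20 their lowest on replicate 2. The shares over all genes called lower were not counted. The median of all bright probe sets was also highest on replicate 3 and lowest on replicate 2, so this order is not particular to these genes. With replicate 3 left out, 28 genes were called lower and 4 higher, where 31.8% of all genes were called lower and 45.7% higher. Markers of photoreceptors and retinoblastoma were present, with 12 of 12 genes measured and bright probe sets for CRX, GNB3, MYCN, NRL, OTX2, PDE6H and RBP3, and their mean was -0.80, -1.18 and -0.00024 on the GNPs-HDM2 arrays, 0.78, 0.85 and 0.81 on the GNPs arrays and 0.39, 0.48 and 0.90 on the Control arrays. Markers of fibroblasts, pigment epithelium and blood had no bright probe set in any of 6, 5 and 5 measured genes. Of these genes 1, 0 and 4 had no middle probe set either. The means of the lists were higher by 0.51, 0.72 and 0.52 on the conjugate arrays against the Control arrays. The dim class as a whole was higher by 0.49 and the middle class by 0.06. Of 5 Mueller glia markers GLUL and VIM had bright probe sets, and the mean of the list differed by -0.40. The part of other cells in the results was not tested.

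**Figure D1:**
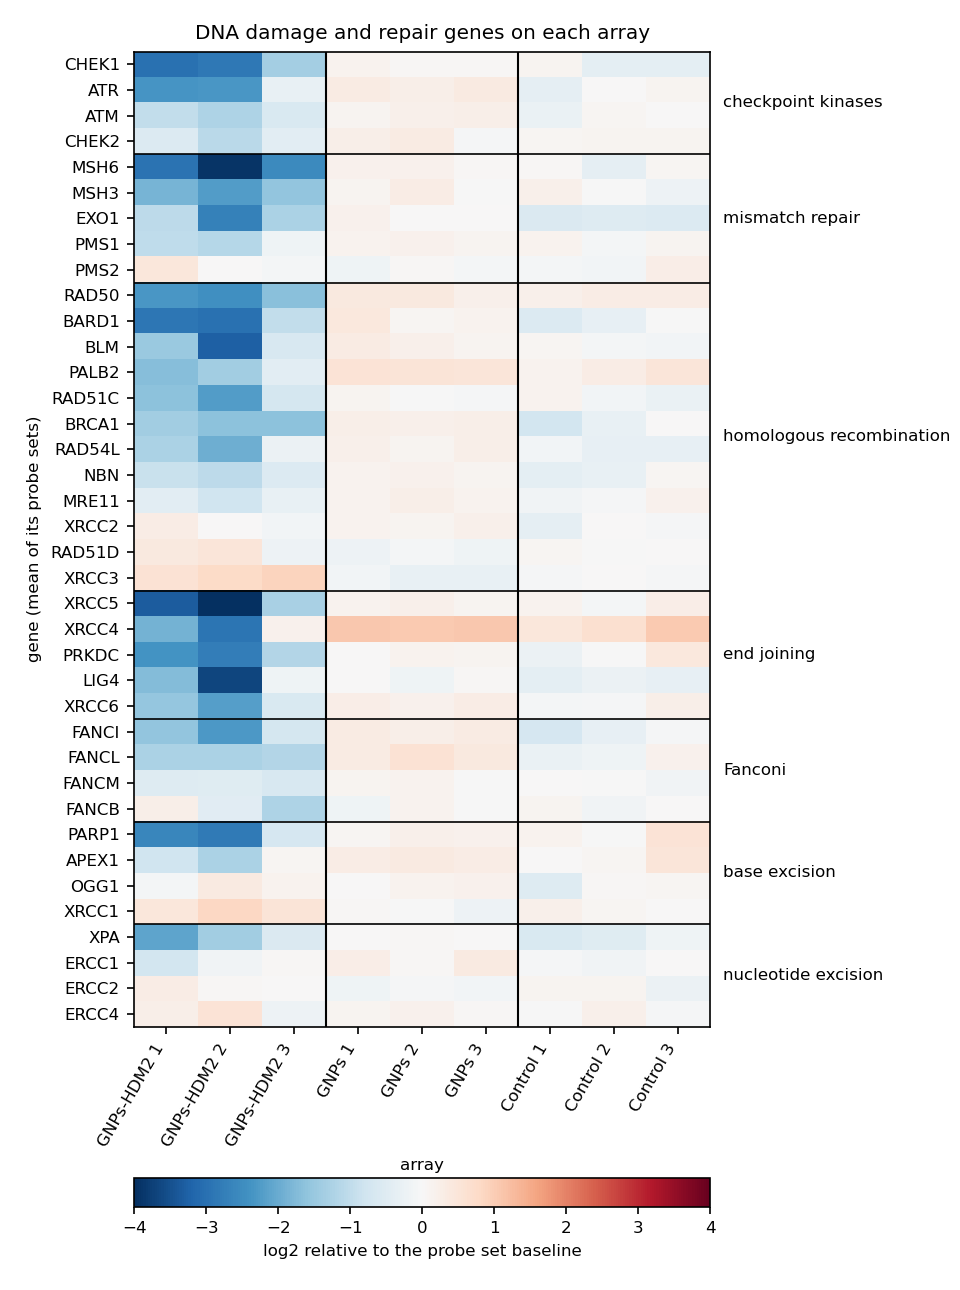
Each row is 1 of the 38 measured repair genes, grouped by role, and each column is 1 array, with the GNPs-HDM2 arrays at the left, the GNPs arrays in the middle and the Control arrays at the right. The colour is the deposited log2 value relative to the probe set baseline, and most rows are low on GNPs-HDM2 replicates 1 and 2, less so on replicate 3, and near 0 on the other 6 arrays.

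The promoters of 4 genes are shown because they include the genes of deepest fall and of largest rise that have an entry in the RefSeq promoter table (GRCh38.p14, 250 bases before to 50 after the gene start), and because letters bound by E2F factors are found near some of them. MSH6 (chr2:47782895-47783194, + strand) and RAD50 (chr5:132556727-132557026, + strand) fell, and XRCC3 (chr14:103715402-103715701, - strand) rose. MSH3 (chr5:80654402-80654701, + strand) also fell and was added after its values were seen, for its pair of matches. Sequences run 5′ to 3′ in the direction of the gene, and capitals mark the matched letters.
MSH6: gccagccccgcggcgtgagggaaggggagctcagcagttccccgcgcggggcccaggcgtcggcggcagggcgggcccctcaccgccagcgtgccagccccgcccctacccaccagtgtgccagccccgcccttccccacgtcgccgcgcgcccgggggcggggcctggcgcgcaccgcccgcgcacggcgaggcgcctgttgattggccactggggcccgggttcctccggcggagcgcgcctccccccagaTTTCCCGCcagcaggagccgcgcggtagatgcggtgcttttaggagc
MSH3: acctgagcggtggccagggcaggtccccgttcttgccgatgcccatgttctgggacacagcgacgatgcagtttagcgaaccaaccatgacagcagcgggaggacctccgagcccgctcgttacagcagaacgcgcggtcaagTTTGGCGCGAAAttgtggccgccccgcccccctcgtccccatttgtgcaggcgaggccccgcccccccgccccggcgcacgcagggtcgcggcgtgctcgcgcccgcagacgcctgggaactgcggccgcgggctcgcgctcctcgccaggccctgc
RAD50: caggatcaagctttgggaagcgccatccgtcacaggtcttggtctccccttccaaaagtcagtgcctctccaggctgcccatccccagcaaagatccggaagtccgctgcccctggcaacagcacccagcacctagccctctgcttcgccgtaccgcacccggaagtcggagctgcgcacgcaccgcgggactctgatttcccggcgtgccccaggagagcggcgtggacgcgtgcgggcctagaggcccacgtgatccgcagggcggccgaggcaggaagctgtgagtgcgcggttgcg
XRCC3: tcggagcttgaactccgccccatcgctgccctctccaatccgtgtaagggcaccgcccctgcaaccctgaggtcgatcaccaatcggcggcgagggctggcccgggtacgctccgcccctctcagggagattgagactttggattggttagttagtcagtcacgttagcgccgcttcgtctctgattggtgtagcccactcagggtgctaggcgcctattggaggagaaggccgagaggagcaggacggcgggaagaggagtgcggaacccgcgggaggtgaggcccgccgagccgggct
The letters searched, on both strands, were TTTGGCGC, TTTGCCGC, TTTCGCGC and TTTCCCGC. In MSH6 the match TTTCCCGC began at base 4 after the gene start. In MSH3 the matches TTTGGCGC on the gene's strand and TTTCGCGC on the other strand overlap, with first bases at -107 and -103. RAD50 and XRCC3 held none of the letters in this window.

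Of the 38 genes, 34 had an entry in the promoter table, and 6 of those (17.6%) held the E2F letters: EXO1, MSH3, MSH6, PMS2, XRCC2 and XRCC6. The share was 3.32% of all 35093 promoters and 4.55% of the 14425 promoters of genes measured on the arrays. Among the genes called lower with the conjugate, 4 of 23 (17.4%) held the letters, and among the others 2 of 11 (18.2%). PMS2 and XRCC2 held them and did not pass the test, and RAD50, without them in this window, fell by 2.41 on the log2 scale. The letters TTTGAA and TTCGAA, those of the CHR element of late cell cycle genes, were in 2 of the 34 (5.88%, ATM and XRCC1), beside 16.4% of all promoters and 13.5% of those measured.

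All 4 checkpoint kinases fell with the conjugate, with a median of -1.24, and all 4 were also called lower after level-centring, with a median of -1.34. CHEK1, the kinase that acts after ATR and holds S and G2 phase, lay at -2.97, -2.84 and -1.35 on the GNPs-HDM2 arrays, 0.15, 0.05 and 0.04 on the GNPs arrays and 0.12, -0.40 and -0.38 on the Control arrays. All 3 conjugate arrays lay far below the other 6. The difference from untreated cells was -2.17 (SE 0.37, limma adjusted p = 0.00284), and all 6 of its probe sets fell, from -2.68 to -1.92. Level-centred the difference was -1.65. ATM, the kinase recruited to double-strand breaks, lay at -0.99, -1.25 and -0.61 with the conjugate, 0.10, 0.22 and 0.25 with bare particles and -0.26, 0.07 and 0.02 in untreated cells. The groups did not overlap, and the difference from untreated cells was -0.89 (SE 0.19, limma adjusted p = 0.00562). Its probe sets did not move alike: 2 of 5 were called lower, and they ranged from -2.47 to 0.21.

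ATR, the kinase that answers single-stranded DNA at stalled forks, lay at -2.37, -2.34 and -0.29 on the GNPs-HDM2 arrays, 0.32, 0.23 and 0.35 on the GNPs arrays and -0.35, 0 and 0.12 on the Control arrays. The first 2 conjugate arrays were far below all others, but the third lay within the range of the untreated arrays. The difference was -1.59 (SE 0.46, limma adjusted p = 0.0173). It no longer passed without GNPs-HDM2 replicate 1 (-1.24, adjusted p = 0.0705), GNPs-HDM2 replicate 2 (-1.26, adjusted p = 0.06), Control replicate 2 (-1.56, adjusted p = 0.0508) or Control replicate 3 (-1.49, adjusted p = 0.0604), each by limma. CHEK2, the kinase activated by ATM, lay at -0.56, -1.08 and -0.41 on the GNPs-HDM2 arrays, 0.23, 0.33 and -0.04 on the GNPs arrays and 0.08, 0.10 and 0.12 on the Control arrays. The conjugate arrays were below all others and the difference was -0.78 (SE 0.20, limma adjusted p = 0.00993), or -0.48 level-centred. CHEK2 had 2 probe sets that went opposite ways, a bright one at -2.27 and a dim one at 0.71, both past the threshold, and the gene has near copies elsewhere in the genome that could share its signal, so its value is uncertain.

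**Figure D2:**
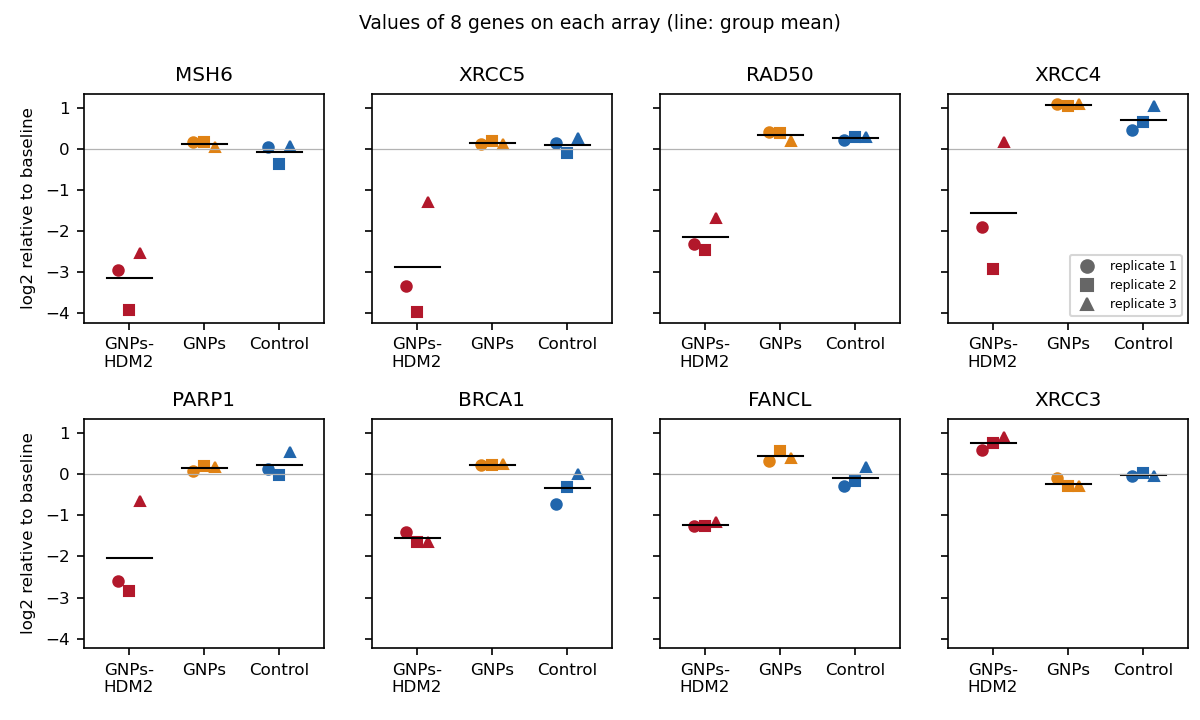
Points are the 9 single arrays for 8 of the genes, with GNPs-HDM2 at the left, GNPs in the middle and Control at the right of each panel, and the vertical axis is the deposited log2 value relative to the probe set baseline. The line is the mean of 3 arrays. The conjugate arrays of MSH6, XRCC5 and RAD50 lie below all 6 other arrays, and those of XRCC3 above them.

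Among the mismatch repair genes, 4 of 5 fell with the conjugate and PMS2 did not pass, with a median of -1.13 that stayed at -1.19 after level-centring. MSH6, which finds single mismatches, lay at -2.96, -3.91 and -2.54 on the GNPs-HDM2 arrays, against 0.16, 0.16 and 0.04 on the GNPs arrays and 0.06, -0.36 and 0.06 on the Control arrays. It was the deepest fall of the 38 genes, 8.32-fold lower on the linear scale, and its conjugate arrays lay far below the other 6. On the log2 scale the difference was -3.06 (SE 0.30, limma adjusted p = 0.000549), and both its bright and its middle probe set fell (-2.49 and -3.62). Level-centred the difference was -2.54. MSH3, which finds larger loops, lay at -1.87, -2.23 and -1.58 with the conjugate, 0.12, 0.29 and -0.02 with bare particles and 0.19, -0.01 and -0.20 in untreated cells. These 3 conjugate values were close together and all below the rest. Its difference was -1.89 (SE 0.20, limma adjusted p = 0.00071), and level-centred it was -1.94.

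EXO1, the nuclease that removes the strand holding the mismatch, lay at -1.06, -2.71 and -1.28 on the GNPs-HDM2 arrays, 0.18, 0.01 and 0 on the GNPs arrays and -0.57, -0.52 and -0.56 on the Control arrays. The conjugate arrays were lowest, the untreated arrays next and the bare particle arrays highest, with no overlap. The difference from untreated cells was -1.13 (SE 0.36, limma adjusted p = 0.0231). It moved to -0.62 without GNPs-HDM2 replicate 2, and it no longer passed without Control replicate 1, 2 or 3 (-1.14, -1.12 and -1.14; limma adjusted p = 0.0526, 0.0617 and 0.0628). PMS1, a relative of the mismatch repair endonuclease subunit PMS2, lay at -1.01, -1.14 and -0.17 on the GNPs-HDM2 arrays, 0.14, 0.16 and 0.11 on the GNPs arrays and 0.15, -0.07 and 0.12 on the Control arrays. Replicates 1 and 2 of the conjugate were clearly lower and replicate 3 was just below the lowest of the others. The difference was -0.84 (SE 0.24, limma adjusted p = 0.0149), and it was lost without GNPs-HDM2 replicate 1 (-0.72, limma adjusted p = 0.0553). Its 7 probe sets did not move alike: 4 were called lower and 0 higher, and they ranged from -3.31 to 0.997. Against bare particles 4 of them were called lower and 2 higher. PMS2 rested on 1 dim probe set, differed by 0.10 (SE 0.19), and is uncertain because the genome holds many near copies of it.

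The homologous recombination genes split. Of 12 measured, 9 fell, XRCC3 rose, and RAD51D and XRCC2 did not pass, with a median of -1.06. Level-centred, 6 were called lower and 1 higher, with a median of -0.61. The genes are given in the order of the route, from the complex that holds the broken ends, through the BRCA1 complexes, to the genes of strand exchange and the helicases.

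RAD50, the long coiled-coil protein of the complex that grips broken ends, lay at -2.32, -2.46 and -1.67 on the GNPs-HDM2 arrays, 0.41, 0.40 and 0.19 on the GNPs arrays and 0.21, 0.28 and 0.28 on the Control arrays. The 3 conjugate arrays were all far below the other 6, which lay close together. The difference was -2.41 (SE 0.21, limma adjusted p = 0.000376), the smallest adjusted p of the 38 genes, and all 3 probe sets fell. Level-centred the difference was -1.70. MRE11, the nuclease of the same complex, lay at -0.42, -0.78 and -0.30 with the conjugate, 0.15, 0.22 and 0.13 with bare particles and -0.14, -0.04 and 0.17 in untreated cells. The conjugate arrays lay below the others by a small margin. NBN, the other subunit, which brings ATM to the ends, lay at -0.91, -1.05 and -0.54 with the conjugate, 0.13, 0.17 and 0.11 with bare particles and -0.39, -0.31 and 0.09 in untreated cells. The differences from untreated cells were -0.49 (SE 0.17, limma adjusted p = 0.0321) for MRE11 and -0.63 (SE 0.19, limma adjusted p = 0.0181) for NBN, both smaller than that of RAD50 in these values. The MRE11 call was lost in 7 of the 9 fits that left out 1 array, all but those without GNPs-HDM2 replicate 3 and Control replicate 1 (-0.54 to -0.35, limma adjusted p 0.0531 to 0.107). Its 5 probe sets ran from -1.79 to 0.61, and with their median in place of the mean the value was -0.16 (limma adjusted p = 0.382). The NBN call was lost without GNPs-HDM2 replicate 1 (-0.60, limma adjusted p = 0.0531) or Control replicate 3 (-0.49, adjusted p = 0.0699).

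BRCA1, the ubiquitin ligase that directs broken ends into recombination, lay at -1.40, -1.64 and -1.64 on the GNPs-HDM2 arrays, 0.24, 0.22 and 0.24 on the GNPs arrays and -0.73, -0.31 and 0.00067 on the Control arrays. The bare particle arrays were nearly equal and the untreated arrays were spread, and the 3 groups did not overlap. The difference from untreated cells was -1.21 (SE 0.19, limma adjusted p = 0.00231). Of its 5 probe sets 2 were called lower, the bright one at -2.79, and without the probe sets whose name marks a shared or cross-hybridizing target the difference was -0.26 (limma adjusted p = 0.242). BARD1, its partner in the ligase, lay at -2.88, -2.98 and -0.99 on the GNPs-HDM2 arrays, against 0.42, 0.08 and 0.14 on the GNPs arrays and -0.55, -0.33 and -0.01 on the Control arrays. All conjugate arrays were below the rest, and the difference was -1.99 (SE 0.45, limma adjusted p = 0.00677). PALB2, the bridge between BRCA1 and BRCA2, lay at -1.72, -1.39 and -0.42 with the conjugate, 0.54, 0.52 and 0.50 with bare particles and 0.14, 0.30 and 0.48 in untreated cells. The groups did not overlap and the difference was -1.48 (SE 0.29, limma adjusted p = 0.00406), but its single probe set is bright, and level-centred the value was -0.39 and no longer passed.

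XRCC3, which helps to resolve the recombined strands, lay at 0.58, 0.77 and 0.90 on the GNPs-HDM2 arrays, -0.10, -0.28 and -0.30 on the GNPs arrays and -0.05, 0.03 and -0.05 on the Control arrays. It was the largest rise among the 38 genes, with all conjugate arrays above the other 6, and it differed by 0.77 (SE 0.15, limma adjusted p = 0.00404). Level-centred it remained higher at 0.71. It rested on 1 probe set of the middle class. Its partner RAD51C went the other way, at -1.66, -2.22 and -0.69 with the conjugate, 0.11, -0.02 and -0.06 with bare particles and 0.14, -0.10 and -0.26 in untreated cells. All conjugate arrays lay below the others, the difference was -1.45 (SE 0.32, limma adjusted p = 0.00655), or -0.75 level-centred, and 2 of its 4 probe sets were called lower. RAD51D and XRCC2, which work together in recombination, did not pass, at 0.20 (SE 0.19) and 0.19 (SE 0.17), although RAD51D was called higher without GNPs-HDM2 replicate 3 (0.41, limma adjusted p = 0.00981). The 2 probe sets of XRCC2 went opposite ways, 1 at 0.92, called higher, and 1 at -0.54, not called. Against bare particles the first was called higher (1.06) and the second lower (-1.21), so the mean hides a split.

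BLM, the helicase that unwinds joined molecules and is lost in Bloom syndrome, lay at -1.50, -3.26 and -0.64 on the GNPs-HDM2 arrays, 0.33, 0.20 and 0.12 on the GNPs arrays and 0.08, -0.06 and -0.12 on the Control arrays. The conjugate arrays were spread widely and all lay below the rest. Its difference was -1.76 (SE 0.51, limma adjusted p = 0.0167), it moved to -1.03 without GNPs-HDM2 replicate 2, and level-centred it was -0.67 and no longer passed. RAD54L, a motor protein of recombination, lay at -1.26, -1.96 and -0.25 on the GNPs-HDM2 arrays, 0.21, 0.12 and 0.23 on the GNPs arrays and -0.12, -0.32 and -0.34 on the Control arrays. GNPs-HDM2 replicate 3 lay within the untreated range. The difference was -0.90 (SE 0.35, limma adjusted p = 0.0466), just past the threshold. Every fit that left out 1 array other than GNPs-HDM2 replicate 3 lost the call (-0.94 to -0.50, limma adjusted p 0.0661 to 0.139), without replicate 3 the value was -1.35, and level-centring turned it to 0.20.

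End joining had the lowest median of the 7 roles. Of its 5 genes 4 fell and LIG4 did not pass, and the median was -2.18, or -1.61 level-centred. XRCC5, which codes for the Ku80 part of the ring that slides onto broken ends, lay at -3.33, -3.97 and -1.29 on the GNPs-HDM2 arrays, 0.13, 0.19 and 0.11 on the GNPs arrays and 0.15, -0.09 and 0.26 on the Control arrays. Replicates 1 and 2 were far below and replicate 3 was still clear of all others. The difference was -2.97 (SE 0.53, limma adjusted p = 0.00326), or 7.84-fold lower, both its probe sets were bright, and level-centred it was -1.88. XRCC6, which codes for its partner Ku70, lay at -1.56, -2.20 and -0.60 with the conjugate, 0.25, 0.17 and 0.29 with bare particles and -0.08, -0.03 and 0.22 in untreated cells. The conjugate arrays ran in the same order as in XRCC5, all below the rest. XRCC6 differed by -1.49 (SE 0.33, limma adjusted p = 0.00632) and, level-centred, by -0.40.

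PRKDC, the kinase that Ku recruits, lay at -2.40, -2.77 and -1.17 on the GNPs-HDM2 arrays, 0.0047, 0.13 and 0.10 on the GNPs arrays and -0.23, -0.0045 and 0.42 on the Control arrays. Its conjugate arrays were all below the rest, the difference was -2.18 (SE 0.35, limma adjusted p = 0.00243), and 3 of 4 probe sets were called lower (range -3.08 to 0.05). Level-centred the difference was -1.66. XRCC4, the scaffold of the ligase, lay at -1.90, -2.92 and 0.17 with the conjugate, 1.09, 1.04 and 1.08 with bare particles and 0.45, 0.65 and 1.04 in untreated cells. Replicate 3 lay well above the other conjugate arrays, yet below every array of the other groups. The difference was -2.27 (SE 0.60, limma adjusted p = 0.0124), or -1.46 level-centred. Of its 4 probe sets 3 were called lower. The remaining probe set, at -0.87, was not called, and on GNPs-HDM2 replicate 3 it lay at 0.89, above every array of the other groups. LIG4, the ligase that seals the ends, lay at -1.74, -3.67 and -0.18 with the conjugate, 0, -0.16 and 0.05 with bare particles and -0.39, -0.22 and -0.33 in untreated cells. GNPs-HDM2 replicate 3 lay above all untreated arrays, and the difference of -1.55 (SE 0.66) missed the threshold (limma adjusted p = 0.0641). It was past the threshold without that array (-2.39, limma adjusted p = 0.000699).

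**Figure D3:**
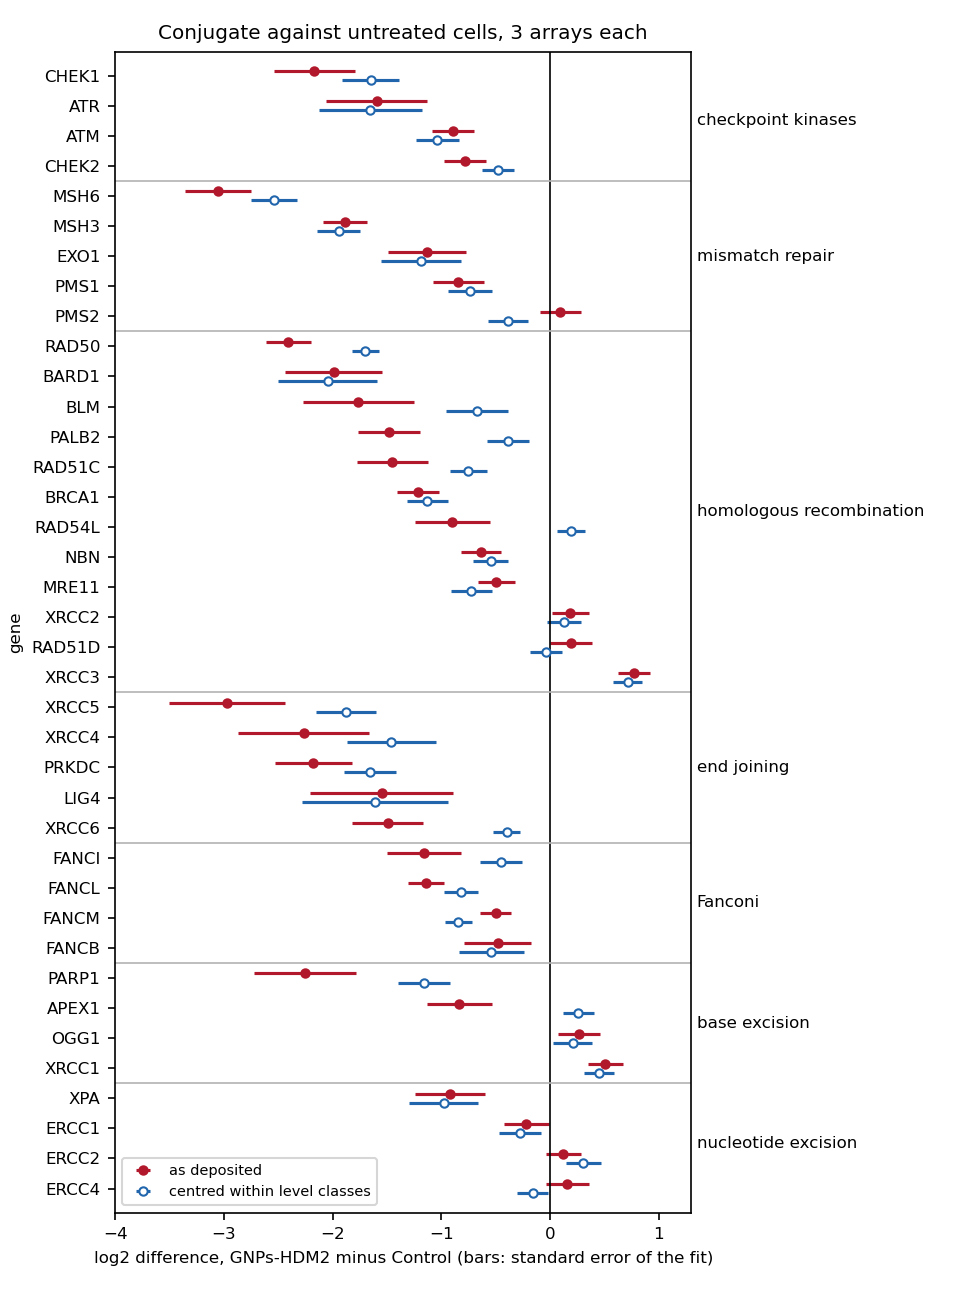
For each of the 38 genes, grouped by role down the page, the GNPs-HDM2 minus Control difference in log2 is drawn with its standard error from the limma fit, as deposited and after level-centring. Most points lie left of 0, XRCC3 and XRCC1 lie right of it, and among the genes called lower RAD54L and APEX1 change side after level-centring, as do PMS2, RAD51D and ERCC4, which did not pass.

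In the Fanconi pathway 3 of 4 measured genes fell and FANCB did not pass, with a median of -0.82, and level-centred 2 were called lower, with a median of -0.68. FANCL, the ubiquitin ligase that marks FANCD2 and FANCI, lay at -1.27, -1.27 and -1.17 on the GNPs-HDM2 arrays, 0.33, 0.57 and 0.40 on the GNPs arrays and -0.28, -0.17 and 0.18 on the Control arrays. The 3 conjugate values were close together and all 3 groups lay apart. It differed from untreated cells by -1.14 (SE 0.16, limma adjusted p = 0.00162) and, level-centred, by -0.82. Its 3 probe sets ran from -1.96 to -0.06, and 2 were called lower. They spread more than their mean: the bright one lay at -2.28, -3.37 and -0.62 on the conjugate arrays. On the same arrays 1 of the middle class lay at 0, 0.89 and -1.08. FANCI, one of the marked pair, lay at -1.56, -2.29 and -0.70 with the conjugate, 0.34, 0.23 and 0.33 with bare particles and -0.66, -0.34 and -0.06 in untreated cells. The conjugate arrays were again lowest and the bare particle arrays highest, although GNPs-HDM2 replicate 3 and Control replicate 1 nearly met. Its difference was -1.16 (SE 0.34, limma adjusted p = 0.0174). Level-centring ended the call (-0.45), as did leaving out GNPs-HDM2 replicate 1 (-1.14, adjusted p = 0.054) or Control replicate 3 (-1.01, adjusted p = 0.067), by limma.

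FANCM, the motor protein that recognizes stalled forks, lay at -0.51, -0.48 and -0.64 on the GNPs-HDM2 arrays, 0.12, 0.14 and -0.01 on the GNPs arrays and 0.02, -0.0035 and -0.15 on the Control arrays. The conjugate arrays were below all others, and the difference was -0.50 (SE 0.14, limma adjusted p = 0.0151), or -0.84 level-centred. That mean joined 1 middle probe set at -2.01 with dim ones at 0.32 and 0.19. With the median of the probe sets the value was 0.11, and without Control replicate 2 it was -0.48 (limma adjusted p = 0.0564). FANCB, a subunit of the same ligase complex as FANCL, differed by -0.48 (SE 0.31, limma adjusted p = 0.19), and was called lower without GNPs-HDM2 replicate 1 (-0.84, adjusted p = 0.0303).

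The base excision genes went both ways: PARP1 and APEX1 fell, XRCC1 rose and OGG1 did not pass, with a median of -0.28. Level-centring turned that median to 0.24, with 1 gene called lower and 1 higher. PARP1, the enzyme that marks single-strand breaks with poly(ADP-ribose), lay at -2.60, -2.84 and -0.66 on the GNPs-HDM2 arrays, 0.07, 0.21 and 0.17 on the GNPs arrays and 0.13, -0.01 and 0.54 on the Control arrays. All conjugate arrays lay below the rest, replicate 3 the least. The difference was -2.25 (SE 0.47, limma adjusted p = 0.00531), all 4 probe sets were bright and called lower, and level-centred it was -1.16. XRCC1, the scaffold that PARP1 draws to the break, lay at 0.46, 0.83 and 0.50 with the conjugate, 0.05, -0.01 and -0.19 with bare particles and 0.20, 0.06 and 0 in untreated cells. All its conjugate arrays lay above the other 6. The difference was 0.51 (SE 0.16, limma adjusted p = 0.0229), but 1 of its 3 probe sets carried it, at 1.37 against -0.08 and 0.25. The XRCC1 call was lost without GNPs-HDM2 replicate 2 (0.39, adjusted p = 0.0508), Control replicate 2 (0.50, adjusted p = 0.0708) or Control replicate 3 (0.47, adjusted p = 0.0727), by limma.

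APEX1, the endonuclease that cuts at sites left without a base, lay at -0.78, -1.26 and 0.09 on the GNPs-HDM2 arrays, 0.29, 0.35 and 0.30 on the GNPs arrays and 0, 0.06 and 0.48 on the Control arrays. GNPs-HDM2 replicate 3 lay within the untreated range. The difference of -0.83 (SE 0.30, limma adjusted p = 0.0368) rested on 1 bright probe set, turned to 0.26 after level-centring, and was lost in every fit that left out 1 array other than GNPs-HDM2 replicate 3 (-0.92 to -0.53, limma adjusted p 0.0552 to 0.124). OGG1, the glycosylase for oxidized guanine, differed by 0.27 (SE 0.20).

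The nucleotide excision genes had the median nearest to 0 of the 7 roles. Only XPA passed, as lower, among the 4 measured (25%, beside 25.1% of all genes), and the median was -0.05, or -0.21 level-centred. XPA, which checks the lesion before the cut, lay at -2.10, -1.38 and -0.56 on the GNPs-HDM2 arrays, 0.02, 0.04 and 0 on the GNPs arrays and -0.62, -0.49 and -0.17 on the Control arrays. GNPs-HDM2 replicate 3 lay within the untreated range. The difference was -0.92 (SE 0.32, limma adjusted p = 0.0336), and it was lost in every fit that left out 1 array other than GNPs-HDM2 replicate 3 (-1.02 to -0.55, limma adjusted p 0.0507 to 0.11). ERCC1, subunit of the nuclease that cuts on the 5′ side of a lesion, lay at -0.73, -0.14 and 0.05 with the conjugate, 0.26, 0.06 and 0.37 with bare particles and -0.03, -0.14 and 0.01 in untreated cells. The conjugate and untreated values overlapped, with a difference of -0.22 (SE 0.21). ERCC2, a helicase of the opening complex, and ERCC4, the catalytic partner of ERCC1, differed by 0.12 (SE 0.16) and 0.16 (SE 0.20), and of the 5 probe sets of ERCC4 1 was called higher and 1 lower, from -1.22 to 0.94. ERCC4 was called higher without GNPs-HDM2 replicate 3 (0.36, limma adjusted p = 0.0413), and level-centred it was -0.16.

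The fall followed the level class of the probe sets, in these genes as in the whole table. Of the 34 bright probe sets of the repair genes 29 were called lower against untreated cells (85.3%, beside 59.2% of all bright probe sets), of the 57 middle ones 26 (45.6%, beside 25.3%), and of the 16 dim ones 0 (0%, beside 0.487%). The medians were -2.12, -0.60 and 0.14 in these classes, beside -1.14, 0.12 and 0.50 over all probe sets of each. Level-centred, 67.6%, 47.4% and 18.8% were called lower, beside 29%, 26.5% and 5.26% of all. In all, 55 of the 107 probe sets were called lower and 5 higher, where 23.7% and 24.9% of all probe sets were. Against bare particles 66 were called lower and 9 higher (28.3% and 36.3% of all probe sets), and with bare particles against untreated cells 0 were called (0.00811% of all probe sets higher and 0% lower). Of 18 genes with probe sets in more than 1 class, 13 had the lower value in their brightest class. The share over all genes with such probe sets was not counted, so the 13 are no trait of the repair genes. RAD51C was at -2.03 in its bright probe sets and 0.30 in its dim one, and NBN at -1.16 and -0.12. The exceptions were CHEK1, ERCC2, MSH6, PRKDC and RAD51D, of which MSH6 was at -2.49 in its bright and -3.62 in its middle probe set.

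**Figure D4:**
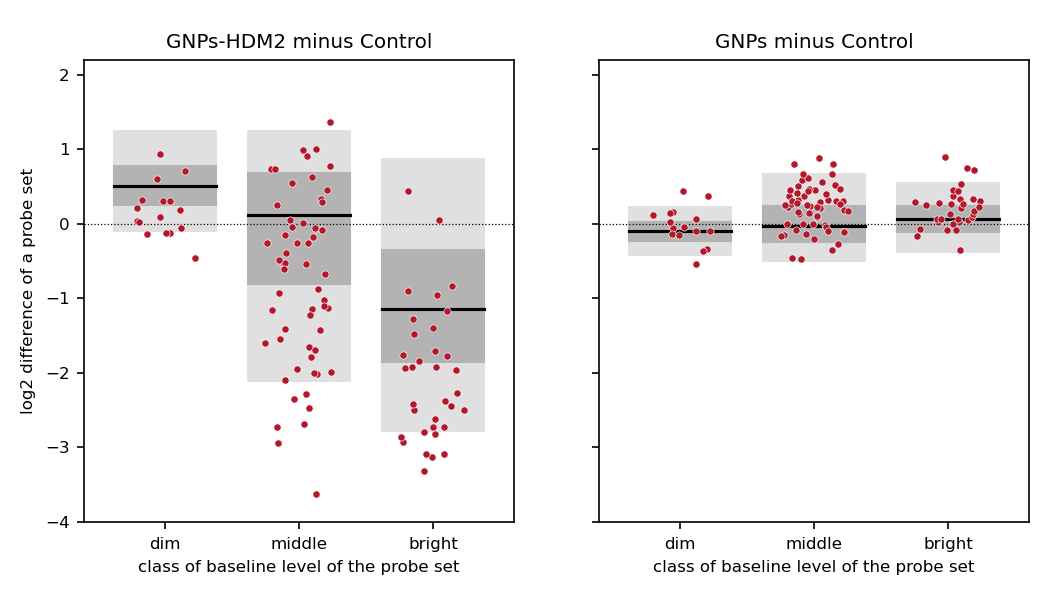
Differences in log2 of the 107 probe sets of the repair genes are drawn as points in the 3 classes of baseline level. The left panel shows GNPs-HDM2 minus Control and the right panel GNPs minus Control. Boxes give the spread of all probe sets of the same class (dark from the lower to the upper quartile, light from the 5th to the 95th percentile). In the left panel the repair genes have medians of 0.14 in the dim, -0.60 in the middle and -2.12 in the bright class. Over all probe sets these medians are 0.50, 0.12 and -1.14.

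No repair gene passed the test with bare particles against untreated cells. Before adjustment, 2 of the 38 had a limma p under 0.05, beside 972 of 18132 genes, and they were BRCA1 and FANCL. The median difference was 0.20, beside -0.06 over all genes, with 31 of the 38 above 0 and 7 below, beside 7437 and 10695 of all genes. In 15 of the 38 all bare particle arrays lay above all untreated arrays (12.4% of all genes), and in XRCC3 and RAD51D all lay below (21.5% of all genes).

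The values on single arrays are given above for each of these genes except RAD51D and XRCC2. The largest differences were 0.65 (SE 0.34, limma adjusted p = 0.864) for FANCI, 0.61 (SE 0.36, limma adjusted p = 0.864) for EXO1, 0.58 (SE 0.19, limma adjusted p = 0.864) for BRCA1 and 0.52 (SE 0.16, limma adjusted p = 0.864) for FANCL. XRCC3 differed by -0.20 (SE 0.15, limma adjusted p = 0.864), the lowest of the 38. RAD51D lay at -0.21, -0.08 and -0.18 on the GNPs arrays and 0.09, -0.01 and 0.02 on the Control arrays. Untreated replicate 1 was the lowest untreated array in 20 of the 38 genes and untreated replicate 3 the highest in 20. These shares were not counted over all genes, so they cannot be read as particular to the 38. The correlation between untreated arrays over all probe sets ran from -0.11 to 0.49, beside 0.74 to 0.91 within GNPs-HDM2 and 0.72 to 0.76 within GNPs, which describes values that share a baseline and is no measure of quality by itself.

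These calls depended on the estimate of spread and on the scaling. After quantile normalization EXO1, BRCA1, BARD1, RAD54L, FANCI, FANCL and XPA passed as higher (0.90 to 1.39, limma adjusted p 0.00312 to 0.0373), where 6.97% of all genes did. With 1 array weight for each group, EXO1, BRCA1, FANCI and FANCL passed as higher (limma adjusted p 0.0368 to 0.0399), where 2.6% of all genes did. With only the bare particle and untreated arrays in the fit, EXO1 passed (0.61, SE 0.09, limma adjusted p = 0.0458), where 0.314% of all genes did.

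**Figure D5:**
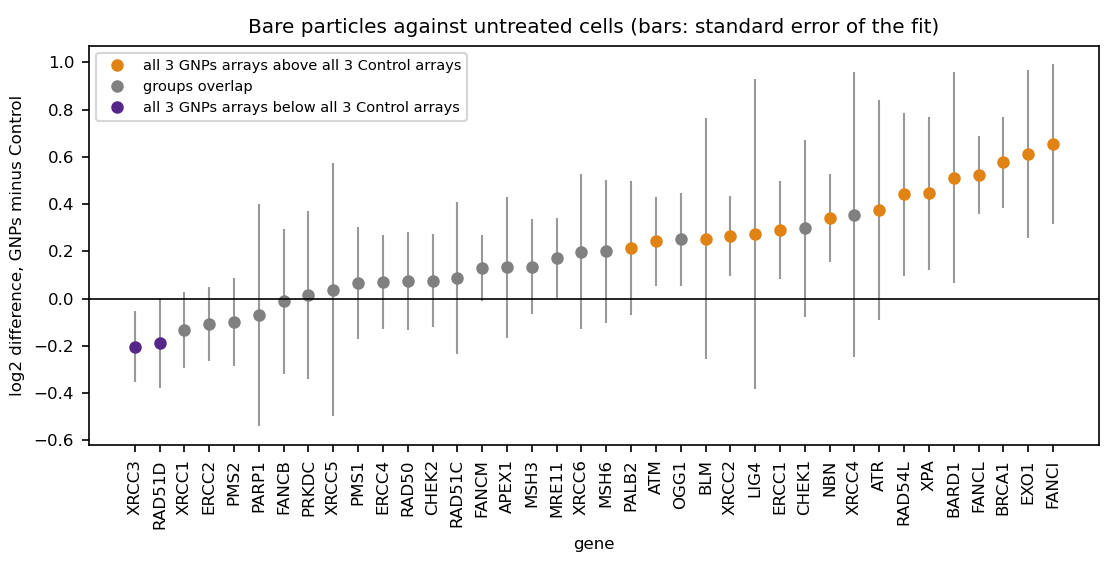
The GNPs minus Control difference in log2 is drawn for each of the 38 genes along the horizontal axis with its standard error from the limma fit, and the points of genes whose 3 GNPs arrays lie apart from the 3 Control arrays are marked. Most points lie above 0, up to 0.65 for FANCI, and none passed the adjusted threshold.

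Set against the bare particles, the conjugate again gave mostly lower values. The median of the 38 genes was -1.45, beside 0.30 over all genes, and the single values ran from -3.26 to 0.98. In 29 genes all conjugate arrays lay below all bare particle arrays (30.5% of all genes) and in XRCC3, XRCC1 and ERCC2 above (45.9% of all genes). This comparison and the one with untreated cells share the conjugate arrays, so the values are only set side by side: 27 genes were called lower in both. Level-centred, 27 were called lower and 3 higher (26.4% and 32.1% of all genes), with a median of -0.91.

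By role, lower calls against bare particles were made for 4 of 4 checkpoint kinases, 4 of 5 mismatch repair genes, 9 of 12 homologous recombination genes, 5 of 5 end joining genes, 3 of 4 Fanconi genes, 2 of 4 base excision genes and 2 of 4 nucleotide excision genes. Over all genes 29.1% were called lower in this comparison. The genes with the smallest adjusted p were RAD50 at -2.48 (SE 0.21, limma adjusted p = 0.000153), MSH6 at -3.26 (SE 0.30, limma adjusted p = 0.000227), FANCL at -1.67 (SE 0.16, limma adjusted p = 0.000256), MSH3 at -2.02 (SE 0.20, limma adjusted p = 0.000256) and BRCA1 at -1.79 (SE 0.19, limma adjusted p = 0.000309). In BRCA1 and FANCL the untreated arrays lay between the other groups, so that the difference from bare particles was larger than that from untreated cells (-1.79 against -1.21, and -1.67 against -1.14). XRCC3 was higher by 0.98 (SE 0.15, limma adjusted p = 0.00094) and XRCC1 by 0.64 (SE 0.16, limma adjusted p = 0.00612).

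LIG4 and ERCC1 were called lower against bare particles and not against untreated cells, and whether these differences themselves differ was not tested. LIG4 differed by -1.82 (SE 0.66, limma adjusted p = 0.0297), with GNPs-HDM2 replicate 3 just below the lowest bare particle array. The call was lost in 5 of the fits without 1 array, those without GNPs-HDM2 replicate 1 or 2 or any GNPs replicate (-1.89 to -0.92, limma adjusted p 0.0525 to 0.0707). ERCC1 differed by -0.51 (SE 0.21, limma adjusted p = 0.0492) and was lost in every fit without 1 array but that without GNPs-HDM2 replicate 3 (-0.59 to -0.28, limma adjusted p 0.05 to 0.161). BLM differed by -2.02, or -1.29 without GNPs-HDM2 replicate 2, and passed in both fits, and level-centred it was -0.86. RAD54L, at -1.34, no longer passed when level-centred (-0.19). APEX1 was lost without GNPs-HDM2 replicate 1 (-0.90, limma adjusted p = 0.0526) and turned to 0.19 after level-centring.

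A second list of damage response genes, outside the 42, was counted for comparison. Of 15 measured sensors and adapters 8 fell and 0 rose with the conjugate against untreated cells, and of 22 measured repair enzymes and scaffolds 7 fell and 1 rose. That is 40.5% of the 37 lower and 2.7% higher, beside 25.1% and 33.1% of all genes, and the 7 of 22 (31.8%) lay near the share of all genes. The median over the 37 was -0.33, beside 0.25 over all genes. Level-centred, 9 of the 37 were called lower and 3 higher, close to the 21.7% of all genes called lower. With bare particles none of the 37 passed in limma, and 3 had an unadjusted p under 0.05. Against bare particles 20 of the 37 fell (54.1%, beside 29.1% of all genes) and 3 rose (8.11%, beside 43.2%), with a median of -0.65 beside 0.30 over all genes, and level-centred 15 were lower and 4 higher.

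RAD17, which loads the checkpoint clamp beside ATR, lay at -2.53, -3.17 and -1.74 on the GNPs-HDM2 arrays, 0.50, 0.42 and 0.36 on the GNPs arrays and -0.04, -0.02 and -0.03 on the Control arrays. All conjugate arrays were far below the rest, and the difference was -2.45 (SE 0.29, limma adjusted p = 0.000941). UNG, the glycosylase that removes uracil, lay at -3.09, -3.36 and -1.05 with the conjugate, 0.26, 0.38 and 0.20 with bare particles and 0.31, 0.14 and 0.40 in untreated cells. All conjugate arrays lay below the other 6, the third the least. Its difference was -2.78 (SE 0.49, limma adjusted p = 0.00294), the largest fall of the second list as deposited, but level-centred it was -1.69, a smaller fall than the -2.12 of RAD17. RECQL5, a helicase of the BLM family, had the only rise, 0.57 (SE 0.16, limma adjusted p = 0.0146), at 0.35, 0.77 and 0.50 on the GNPs-HDM2 arrays, 0.01, -0.13 and -0.04 on the GNPs arrays and 0.05, 0.01 and -0.14 on the Control arrays. All conjugate arrays lay above the other 6.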

How the data were processed

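Total RNA of 9 samples of Y79 cells was labelled with biotin and hybridized to PrimeView arrays, per the labels' protocols, and the arrays fell in 3 groups of 3 by their titles. The authors deposited log values in a single matrix, read here as log2, with a baseline of its own for each probe set. The log base, the tool that summarized the probes and the baseline are not given in the sources used here, and 59.7% of probe sets are exactly 0 on at least 1 array. Fold changes rest on base 2.

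Array controls (102 of 49395 probe sets) did not enter the tests. Genes came from the platform annotation, in which 44988 of the rest had 1 symbol, 1832 several and 2473 none, and a gene's value is the mean over probe sets with that symbol alone. Of the repair genes' probe sets, 7 with several symbols were left out, and 12 genes rested on 1 probe set. Because values carry no level, a class of baseline (dim 2 to 4, middle 4 to 8, bright 8 to 16) was read from the step size of the stored numbers on the Control and GNPs arrays, giving 14583, 24304 and 9201 probe sets, with 1205 not classed.

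Differences were fitted over all 9 arrays by lmFit and eBayes of limma 3.58.1 (R 4.3.3, data.table, version 1.17.8; 2-sided tests), with Benjamini-Hochberg adjustment over all genes or all probe sets and a threshold of 0.05. Errors beside differences are standard errors of that fit. The fit was tested on simulated data in which each group kept its own spread and only a small share of the genes was changed. It recovered the size of added changes but also called unchanged genes, more of them than changed ones. Conjugate counts may therefore be too high. Because so few genes were changed in the simulation, it gives no rate of false calls for the real data. Array controls, level classes and marker lists, each as 1 mean or median per array, were compared by exact permutation over arrays. This used scipy 1.17.1 in Python 3.11.15 (numpy 2.4.6, pandas 2.3.3, matplotlib 3.10.9). The number of arrays limits the precision.

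Values on each array are given for ATM, ATR, CHEK1, CHEK2 and BRCA1, for the largest fall and rise of each role with up to 2 more of smallest adjusted p, and for each gene past the threshold in another comparison. Of the 2 further lists, the largest fall and rise of each are named where they passed. The repair genes, lists and motifs were chosen with earlier results of these data known. Replicate numbers were checked for pairing: correlations of same-numbered deviations ran from -0.03 to 0.23 and were not all over 0.1, so the main fit used no pairing. Low correlations cannot show that the samples were unpaired. Alternatives were 3 scalings, 2 gene values, a filter, the arrays in the fit, 2 settings of spread and the replicate number as a block.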

Additional observations from a re-analysis of the deposited data

How the results depend on the processing

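Against untreated cells the count of lower calls was between 20 and 28 in every setting that left out no single array, apart from quantile normalization, and the 38-gene median stayed below 0 in all. Quantile normalization gave 8 lower and 0 higher calls and a median of -0.32 for the conjugate against untreated cells, 7 higher calls and a median of 0.42 for bare particles against untreated cells, and a median of -0.79 for the conjugate against bare particles. Level-centring gave a median of -0.91 for the conjugate against bare particles. The 2 higher calls against untreated cells became 1 after median centring, with the median of the probe sets, with only the 2 groups compared and with array weights, and against bare particles they became 1 with the median of the probe sets. With bare particles against untreated cells, 1 gene was called higher with only the 2 groups compared and 4 with array weights.

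With 1 array left out, lower calls against untreated cells ran from 19 to 28, higher calls from 1 to 4 and the median from -1.26 to -0.70. Higher calls fell to 1 without GNPs-HDM2 replicate 2, Control replicate 2 or Control replicate 3, and were 4 without GNPs-HDM2 replicate 3. Against bare particles the ranges were 27 to 29 lower, 2 to 3 higher and -1.75 to -1.08, and with bare particles against untreated cells the counts stayed at 0 and the median ran from 0.15 to 0.26. Over all genes, counts against untreated cells ran from 3103 higher and 3421 lower without Control replicate 3 to 8287 and 5758 without GNPs-HDM2 replicate 3.

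Single genes reversed as follows, against untreated cells: under quantile normalization EXO1 to 0.37, RAD54L to 0.22, NBN to 0.024, FANCI to 0.034 and XPA to 0.28, level-centred RAD54L to 0.20 and APEX1 to 0.26, and with the median of the probe sets FANCM to 0.11. Against bare particles APEX1 turned to 0.19 level-centred. The cause was not tested. The replicate block gave 28 lower and 2 higher calls against untreated cells, 28 and 2 against bare particles and 0 with bare particles. LIG4 gained a call against untreated cells (-1.55, limma adjusted p = 0.0474) and ERCC1 lost one against bare particles (-0.51, limma adjusted p = 0.0505). Values without a level leave signal over background unknown, so a dim probe set's small change may be limited by its signal.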
